A study of Homo sapiens with 3 samples.

Results

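Non-targeting guides are the sgRNAs of a CRISPR library that are designed to match no site in the human genome. The 1000 guides described here are all rows of both count tables whose target name begins with NonTargeting, out of 119461 guides in the GeCKOv2 library, and they make up 0.837% of it. The library was delivered to Huh-7 cells, an established human hepatoma line, which were transduced at a target MOI of 0.3 and selected with puromycin. A library was sequenced from untreated cells, from cells that survived 24 h of 0.1 µM RSL-3, and from cells that survived 24 h of 0.03 µM RSL-3 with 50 mM linoleic acid (RSL-3/LA), with 1 library per condition. Survivors were grown out and challenged again over several rounds, and the paper's methods and legends give different numbers of rounds. RSL-3 dose and linoleic acid differ between the survivor libraries, and the number of rounds may differ too. The values of these libraries are therefore set side by side without a test. The untreated library held 1466896 counts, the RSL-3 library 1467705 and the RSL-3/LA library 1485991.

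RSL-3 blocks GPX4, a peroxidase that detoxifies membrane lipid peroxides, and thereby causes ferroptosis, an iron-dependent form of cell death. Linoleic acid is a polyunsaturated fatty acid, a substrate of lipid peroxidation. In a screen of this kind, Cas9 is led by a targeting guide to cut a gene, and the count of that guide after selection rises if its carriers survive and divide. A non-targeting guide leads Cas9 to no gene. Its carriers serve as the reference for how far a count can move in a culture without a target. Some transduced cells can carry a further guide, which counts of single guides cannot show.

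In untreated cells 290 of the 1000 non-targeting guides had at least 1 count, or 29.0% (95% interval 26.2 to 31.9), against 16.0% of all guides. In RSL-3 survivors 56 were counted, or 5.60% (4.26 to 7.21), against 2.46% of all guides. In RSL-3/LA survivors 82 were counted, or 8.20% (6.57 to 10.1), against 4.16% of all guides. These intervals are exact (Clopper-Pearson) and take the guides as independent draws. They describe the sampling of guides within a library and hold no spread between cultures. In each library the interval of the non-targeting guides lay above the share of the whole library. Among gene-targeting guides the shares were 15.9%, 2.43% and 4.14% in the same order, so that non-targeting guides were detected 1.82, 2.30 and 1.98 times as often. Guides against microRNAs resembled the gene-targeting ones, with 15.8%, 2.40% and 3.95%. Guides against olfactory receptor genes, which are cut in cells that have little use for these odorant receptors, were detected at 17.9% (16.3 to 19.5), 2.99% (2.32 to 3.79) and 4.85% (3.995 to 5.84), below the non-targeting set in every library. Most non-targeting guides, 641 of 1000, had no count in any library, so that each could still hold up to 0.000205% of untreated counts.

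The identifiers of the guides are set beside this higher detection. GeCKOv2 is supplied as sub-libraries A and B, which both carry the non-targeting set. In the count tables each non-targeting guide has a single row, with a sub-library A identifier for 551 guides and a sub-library B identifier for 449. The identifier numbers ran in the order of the guide names from 64384 to 65383 in A and from 57029 to 58028 in B, right after the last targeting guide of each. Each guide thus has a place in both ranges and a row in only 1 of them, whereas gene-targeting guides have different identifiers in A and B. Of the gene-targeting guides of A and B, 17.2% and 14.7% were counted in untreated cells. At these shares, 29.3% of independent pairs of 1 guide from A and 1 from B would have a count in either member, which lies inside the interval of the non-targeting guides. The same calculation gave 4.81% after RSL-3 and 8.10% after RSL-3/LA, also inside the intervals. Mean counts of such a pair summed to 24.4, 25.5 and 24.7 in untreated cells, RSL-3 survivors and RSL-3/LA survivors. Non-targeting guides had means of 21.3, 14.8 and 37.5. Whether each non-targeting guide entered the pool from both sub-libraries was not tested. The identifier kept in the table did not go with detection, which was 29.2% (25.5 to 33.2) for rows with an A identifier and 28.7% (24.6 to 33.2) for rows with a B identifier in untreated cells.

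Among detected guides, the medians and upper quartiles of non-targeting and targeting ones were of similar size, whereas the highest counts were not. The median count of detected guides was 52 for non-targeting and 62 for gene-targeting guides in untreated cells. It was 24 and 25 in RSL-3 survivors and 54 and 66 in RSL-3/LA survivors. The upper quartile of detected non-targeting guides was 114 counts before selection, 116.75 after RSL-3 and 231.25 after RSL-3/LA, and that of gene-targeting guides 121, 104 and 221.75. The highest count was 3794 for non-targeting and 286897 for gene-targeting guides after RSL-3, and 12984 and 76533 after RSL-3/LA. These maxima come from sets of unlike size, and a maximum tends to rise with the number of guides. Detected guides numbered 56 non-targeting and 2718 gene-targeting after RSL-3, and 82 and 4618 after RSL-3/LA.

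As a set, the non-targeting guides held 21279 counts before selection, 14802 after RSL-3 and 37536 after RSL-3/LA. These were 1.45% (95% interval 1.43 to 1.47), 1.01% (0.992 to 1.02) and 2.53% (2.50 to 2.55) of the counts. Intervals of shares and ratios of counts leave out all but counting error, and reads amplified by PCR are not independent molecules. The ratio to untreated cells was 0.695 (0.681 to 0.710) after RSL-3 and 1.74 (1.71 to 1.77) after RSL-3/LA. Both ratios depend on a few guides. In RSL-3 survivors the 10 most abundant guides of the library, none of them non-targeting, took 64.7% of all counts, and among the remaining counts the non-targeting share was 2.86%, above the 1.46% found in the same way in untreated cells. As none of these 10 was non-targeting, leaving them out by itself raises the non-targeting share. Without the most abundant non-targeting guide, 25.6% of the set after RSL-3, the ratio was 0.517 (0.505 to 0.529). After RSL-3/LA a single non-targeting guide made up 34.6% of the set, and without it the ratio was 1.16 (1.13 to 1.18). For guides against olfactory receptors the ratio of the set was 0.397 (0.388 to 0.405) after RSL-3 and 0.727 (0.714 to 0.739) after RSL-3/LA. Both were lower than for the non-targeting set. MicroRNA guides had 0.359 and 0.834 in the same order, also lower in both. Gene-targeting guides had 1.04 after RSL-3, above the non-targeting set, and 0.999 after RSL-3/LA, below it.

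Selection concentrated the set on few guides. The effective number of non-targeting guides, the exponential of the Shannon entropy of their counts, was 178 before selection, 11.3 after RSL-3 and 13.5 after RSL-3/LA. The 10 most abundant non-targeting guides of each library held 14.5%, 87.8% and 81.6% of the counts of the set, respectively. Over the 2204 olfactory receptor guides the effective number was 242, 17.2 and 44.0, and their first 10 held 10.9%, 78.0% and 48.7%. The effective number thus fell after selection in both sets, which differ in size. In each library it was lower for the non-targeting set.

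The non-targeting guides that were most frequent before selection were mostly lost. NonTargetingControlGuideForHuman_0651 led the untreated library with 410 counts, followed by NonTargetingControlGuideForHuman_0349 with 361, NonTargetingControlGuideForHuman_0754 with 326, NonTargetingControlGuideForHuman_0395 with 320 and NonTargetingControlGuideForHuman_0432 with 311. All 5 had 0 counts in both survivor libraries. Of the 290 guides counted in untreated cells, 268 (92.4%) had no count in RSL-3 survivors and 254 (87.6%) none in RSL-3/LA survivors, against 96.1% and 93.7% of all guides counted there. Of 225 guides with at least 10 untreated counts, 209 had no count in RSL-3 survivors, 11 were counted at a lower CPM (counts scaled to a library total of 1000000) than before, and 5 at a higher one (2.22%, 95% interval 0.725 to 5.11, against 1.20% of all such guides). In RSL-3/LA survivors 199 had no count, 14 were lower and 12 higher (5.33%, 2.79 to 9.13, against 2.92%). The median log2 ratio of CPM with a pseudocount of 1 CPM was -5.69 and -5.57, respectively, and -5.86 and -5.81 for gene-targeting guides. These medians belong to guides without survivor counts, so their size is set by the pseudocount and the untreated count. With survivor counts of 0 taken as the limit of 3 counts, the medians were -4.68 and -4.62 for non-targeting guides.

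Guides with an untreated count were also counted more often after RSL-3/LA. Over all 290 of them the share was 12.4% (95% interval 8.85 to 16.8), above the 6.48% (4.78 to 8.55) of the guides without an untreated count. After RSL-3 it was 7.59% (4.82 to 11.3), and the interval overlapped that of the guides without one. In RSL-3 survivors 4.79% (95% interval 3.34 to 6.63) of the 710 non-targeting guides without an untreated count were counted, and 4.71% (1.30 to 11.6) of the 85 guides with at least 100 untreated counts. The classes in between reached 9.23% (3.46 to 19.0) for 1 to 9 counts, 6.58% (2.17 to 14.7) for 10 to 49 and 10.9% (4.51 to 21.2) for 50 to 99. After RSL-3/LA the shares of the same classes from 1 to 9 counts upwards were 15.4% (7.63 to 26.5), 7.89% (2.95 to 16.4), 14.1% (6.64 to 25.02) and 12.9% (6.64 to 22.0). Among guides with untreated counts the intervals of neighbouring classes overlapped in both survivor libraries. Gene-targeting guides were counted at 2.17% and 3.75% without an untreated count, and across the classes with untreated counts at 3.55% to 4.14% after RSL-3 and 6.11% to 6.21% after RSL-3/LA.

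A guide was called enriched when it reached 100 CPM after selection and its CPM was 10-fold or more that of untreated cells, where any count under 3 was set to 3. By this rule 11 non-targeting guides were enriched in RSL-3 survivors, or 1.10% (95% interval 0.550 to 1.96), against 0.419% of all guides. After RSL-3/LA 29 were enriched, or 2.90% (1.95 to 4.14), against 1.20% of all guides. Gene-targeting guides were called at 0.420% and 1.19%, and independent pairs of 1 guide each from sub-libraries A and B would give 0.838% and 2.36%, inside the intervals of the non-targeting guides. Per detected guide the call was similarly common in both kinds of guide. Of the detected non-targeting guides 19.6% (10.2 to 32.4) and 35.4% (25.1 to 46.7) were enriched in RSL-3 and RSL-3/LA survivors, against 17.3% and 28.7% of the detected gene-targeting guides. Other scalings of the libraries gave 14 to 23 enriched non-targeting guides after RSL-3 and 5 to 30 after RSL-3/LA.

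In RSL-3 survivors the most abundant non-targeting guide was NonTargetingControlGuideForHuman_0664 (HGLibB_57692). Its counts were 1 before selection, 3794 after RSL-3 and 2 after RSL-3/LA, and it held 0.258% of the RSL-3 library, where it ranked 28 of all guides. Its ratio of CPM, 3792, rests on a single untreated count and has an interval from 680.2 to 149811. Other scalings gave 4961 to 23130. NonTargetingControlGuideForHuman_0846 (HGLibB_57874) followed with 2768 counts, NonTargetingControlGuideForHuman_0882 (HGLibB_57910) with 2264 and NonTargetingControlGuideForHuman_0675 (HGLibB_57703) with 1643. All of these 3 had 0 untreated counts, and they were at least 922-fold, 754-fold and 547-fold higher than the limit of 3 counts in the untreated library. These 4 guides were the ones of the set above 1000 CPM after RSL-3.
NonTargetingControlGuideForHuman_0313 had 820 counts against 1, a ratio of 819.5 (146.7 to 32409). Of the first 10, the remaining 5 had no untreated count. NonTargetingControlGuideForHuman_0167 had 494 counts, NonTargetingControlGuideForHuman_0669 had 443, NonTargetingControlGuideForHuman_0558 had 377, NonTargetingControlGuideForHuman_0925 had 209 and NonTargetingControlGuideForHuman_0510 had 188, which are at least 165-fold to at least 62.6-fold higher than that limit. The enriched guide nearest to the threshold was NonTargetingControlGuideForHuman_0397 with 172 counts (117 CPM) against 1. Just below the level stood NonTargetingControlGuideForHuman_0384 with 119 counts (81.1 CPM) against 1, a ratio of 119 (20.9 to 4737), which was named after its values were seen. NonTargetingControlGuideForHuman_0483, with 123 counts (83.8 CPM), missed both level and fold, as it had 141 counts in untreated cells. NonTargetingControlGuideForHuman_0070 reached the level but not the fold, at 161 counts (110 CPM) against 41.

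Among RSL-3/LA survivors NonTargetingControlGuideForHuman_0586 (HGLibB_57614) stood apart from the rest of the set. Its counts were 306 before selection, 5 after RSL-3 and 12984 after RSL-3/LA. It held 0.874% of the RSL-3/LA library and ranked 6 of all guides. The ratio was 41.9 (95% interval 37.4 to 47.1) after RSL-3/LA, or 11.2 to 50.9 with other scalings, and 0.0163 (0.00526 to 0.0385) after RSL-3. The guide was named for its count after RSL-3/LA, and these ratios compare single libraries, with intervals for counting error alone.
NonTargetingControlGuideForHuman_0442 (HGLibA_64825) came next with 5587 counts, then NonTargetingControlGuideForHuman_0642 (HGLibA_65025) with 3038 and NonTargetingControlGuideForHuman_0052 (HGLibA_64435) with 2250. With 0 untreated counts these were at least 1838-fold, 999.7-fold and 740.4-fold higher than the limit of 3 counts. Several other large survivors had been well counted before selection, unlike those of the RSL-3 library. NonTargetingControlGuideForHuman_0037 had 1951 counts against 81, a ratio of 23.8 (19.0 to 30.1).
NonTargetingControlGuideForHuman_0420 had 1746 counts against 198, a ratio of 8.70 (7.51 to 10.1). NonTargetingControlGuideForHuman_0220 had 946 against 86, a ratio of 10.9 (8.70 to 13.7), and NonTargetingControlGuideForHuman_0908 had 802 against 98, a ratio of 8.08 (6.54 to 10.1). The guides NonTargetingControlGuideForHuman_0420 and NonTargetingControlGuideForHuman_0908 stayed under the 10-fold threshold despite their level. The first 10 were completed by NonTargetingControlGuideForHuman_0152 with 813 counts and NonTargetingControlGuideForHuman_0240 with 523, both against 0. At the threshold, NonTargetingControlGuideForHuman_0875 was the last inside with 150 counts (101 CPM), and NonTargetingControlGuideForHuman_0323 the first outside with 110 (74.0 CPM), both against 0. Of the enriched non-targeting guides, 8 of 11 in RSL-3 survivors and 21 of 29 in RSL-3/LA survivors had no untreated count, so most calls are lower bounds on the fold. With at least 10 untreated counts required, 0 and 4 were left.

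No non-targeting guide reached 100 CPM in both survivor libraries. At 100 CPM or more there were 12 guides in RSL-3 survivors (1.20%, against 0.484% of all guides) and 31 in RSL-3/LA survivors (3.10%, against 1.38%). The number in both was 0 of 1000, which allows up to 0.300% of such guides, against 0.0226% of all guides. In all, 20 guides (2.00%, 95% interval 1.23 to 3.07, against 0.609% of all guides) were counted in both survivor libraries, mostly with a few counts in 1 of them. They were 35.7% of the non-targeting guides counted after RSL-3 and 24.4% of those counted after RSL-3/LA, against 24.7% and 14.6% over all guides. Of the 12 guides at 100 CPM in RSL-3 survivors, 5 had a count in RSL-3/LA survivors, with at most 2 counts. Of the 31 guides at 100 CPM in RSL-3/LA survivors, 11 had a count in RSL-3 survivors, with at most 21. Reads assigned to the wrong library can leave such low counts, and their part was not tested.
At least 10 counts in both were found for 4 guides. NonTargetingControlGuideForHuman_0051 had 21 and 220 counts in RSL-3 and RSL-3/LA survivors and NonTargetingControlGuideForHuman_0358 had 14 and 235, both against 0 in untreated cells. NonTargetingControlGuideForHuman_0930 had 12 and 35 against 158, and NonTargetingControlGuideForHuman_0752 had 10 and 67 against 0. These 4 guides were named after their values were seen.

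The non-targeting guides give a level against which the outgrowth of targeting guides can be read. In RSL-3 survivors 27 targeting guides (0.0228% of the 118461 against genes or microRNAs) had more counts than the most abundant non-targeting guide. Together they held 72.6% of the library. They hit 26 targets, and DHCR7, which reduces 7-dehydrocholesterol to cholesterol, was the gene hit by 2 of them. Its guide HGLibA_13093 had 286897 counts, 75.6 times as many as the most abundant non-targeting guide, and HGLibA_13095 had 216198, 57.0 times as many. Single guides of MUC16, a cell-surface mucin, of GSTZ1, an enzyme of tyrosine breakdown, of FRG1 and of HYOU1, a chaperone of the endoplasmic reticulum, had 41.1, 30.6, 20.2 and 12.6 times its count. From the seventh guide on the distance was small, with 3.49 times for FAM102A, 3.32 for COQ6, an enzyme of ubiquinone synthesis, 3.29 for ITSN1 and 3.07 for MALSU1. A further DHCR7 guide, HGLibB_13075, had 3 counts after RSL-3, which 45 non-targeting guides reached.

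In RSL-3/LA survivors the most abundant non-targeting guide, NonTargetingControlGuideForHuman_0586, stood at 8738 CPM, against 2585 CPM for that of RSL-3 survivors. This difference rests on a single guide in each library and depends on the scaling. The order was the same with edgeR TMM factors and with totals without the 10 most abundant guides. Median-of-ratios size factors reversed it, as they set the totals at 302520 for RSL-3 and 6.99e+06 for RSL-3/LA survivors. After RSL-3/LA 5 targeting guides (0.00422%) had more counts than NonTargetingControlGuideForHuman_0586, together with 14.0% of the library. They were HGLibA_13093 of DHCR7 at 5.89 times the most abundant non-targeting guide, and single guides of FRG1 at 4.13 times, HYOU1 at 2.98 times, LAGE3, a subunit of the KEOPS complex of tRNA modification, at 1.97 times and PRR5 at 1.02 times (95% interval of the ratio 0.995 to 1.04). The other DHCR7 guides counted there, HGLibB_13075 with 8206 and HGLibA_13095 with 3482 counts, lay below NonTargetingControlGuideForHuman_0586. Only 1 and 2 non-targeting guides, respectively, had as many counts as these. Against the next non-targeting guide, at 5587 counts, 26 targeting guides were higher, of 25 targets, with DHCR7 again the gene that had 2.
Guides of several other genes lay, each taken alone, inside the non-targeting range. Of these, LPCAT3, SYN1 and HCRTR2, and POR beside them, were chosen after their values were seen. LPCAT3, an acyltransferase that puts polyunsaturated fatty acids into phospholipids, had guides with 937, 673 and 612 counts in RSL-3/LA survivors, and 7, 9 and 9 non-targeting guides had as many. The guides of SYN1, a protein of synaptic vesicles, had 396, 240 and 224 counts, and 13, 20 and 21 non-targeting guides had as many. The guides of HCRTR2, an orexin receptor, had 2537 and 1807 counts, which 3 and 5 non-targeting guides reached. All of these guides of LPCAT3 and HCRTR2 exceeded the 10th most abundant non-targeting guide after RSL-3/LA, at 523 counts. Those of SYN1 did not. At that level 10 genes had 2 or more guides. Agreement between guides of a gene was not tested. In RSL-3 survivors the largest guide of LPCAT3 had 466 counts, which 6 non-targeting guides reached, and that of POR, which passes electrons to P450 enzymes, had 5645 counts, above all non-targeting guides. After RSL-3/LA that POR guide, HGLibB_37656, had 6 counts, which 67 non-targeting guides reached, and HGLibB_37655 of POR had 91, which 35 reached. The COQ6 guide named above, HGLibA_10761, had 468 counts after RSL-3/LA, which 11 non-targeting guides reached. Another LAGE3 guide, HGLibB_25893, had 1534 there, which 6 reached. These values of COQ6 and LAGE3 were also chosen after they were seen.

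The share of targeting guides above a given non-targeting guide was small at each level examined. Above the most abundant one it was 0.0228% after RSL-3 and 0.00422% after RSL-3/LA. Both shares were below 1 of 1000, the part of its own set that this guide makes up. The 10th most abundant non-targeting guide, which 9 of 1000 exceed, had 188 counts after RSL-3 and 523 after RSL-3/LA. More counts than this were found for 479 targeting guides (0.404%) after RSL-3 and 543 (0.458%) after RSL-3/LA. They belonged to 473 and 531 targets, and 6 and 10 genes had 2 or more such guides. Targeting guides were also detected less often, as given above, and the part of this in these percentages was not tested.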

How the data were processed

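Genomic DNA was the template from which the authors amplified the sgRNA cassettes, and MiSeq reads of these were processed with MAGeCK. The settings for matching reads are not given in the sources used here. The authors deposited raw counts per sgRNA in 2 tables, whose untreated columns were identical and were used as 1 library. The authors' tables per target (scores, p-values, false discovery rates, ranks) were not used. Guide sequences were not analysed here.

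CPM were calculated from the counts of all 119461 guides, at total counts of 1466896 to 1485991. With 1 library per condition no test between conditions was made. Shares carry exact (Clopper-Pearson) 95% intervals, and for ratios of CPM the interval was derived from the survivor library's binomial share of both counts. Guides with 0 untreated counts were set against a limit of 3 counts in that library. Olfactory receptor guides are those with a symbol of OR, digits, letters and digits.

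The named guides are the 5 most abundant in untreated cells, the 10 most abundant in each survivor library, those nearest to the threshold, and targeting guides above the most abundant non-targeting guide, up to 10 per library. Members, lists and thresholds were chosen with earlier results of these data known. Alternatives changed scaling (edgeR 4.0.16 TMM factors, median-of-ratios size factors, totals without the 10 most abundant guides), thresholds, floor, pseudocount and filter. Python 3.11.15, numpy 2.4.6, pandas 2.3.3, scipy 1.17.1 and R 4.3.3 were used.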

Additional observations from a re-analysis of the deposited data

How the results depend on the processing

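Of 48 alternatives to 14 results, 23 left the value within its interval or the count within 1.5 times, among them each minimum count for detection up to 10, and 25 moved it further. Without the 10 most abundant guides of each library, the non-targeting share of counts was 2.86% in RSL-3 and 2.02% in RSL-3/LA survivors. With these totals enriched guides in RSL-3 survivors numbered 20, and the ratio of the most abundant non-targeting guide in RSL-3/LA survivors was 50.9. After RSL-3 none of the 10 guides left out was non-targeting. After RSL-3/LA NonTargetingControlGuideForHuman_0586 was among them, so the 2.02% leaves it out and its ratio of 50.9 uses a total without it. Median-of-ratios size factors gave 23 and 5 enriched guides and a ratio of 11.2 for that guide, and edgeR TMM factors 19 enriched guides in RSL-3/LA survivors and a ratio of 28.1. The size factors rest on 197 guides counted in all libraries. At 30 CPM 18 guides were enriched in RSL-3 survivors, at 1000 CPM 4 and 5, and with at least 10 untreated counts 0 and 4. Targeting guides above the 99th percentile of the non-targeting counts numbered 507 and 598, and above the next most abundant guide 26 in RSL-3/LA survivors. The median log2 ratio was -6.67 and -6.53 at a pseudocount of 0.5 CPM, -3.50 and -3.45 at 5 CPM, -5.05 and -4.86 over guides with at least 1 untreated count, and -6.21 and -6.13 over those with at least 50. No paired analysis was possible because there is 1 library for each condition, and none could be left out. Limits are this single library per condition, the few guides counted in untreated cells, and the unknown number of cells behind each count.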

Other observations

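Along the numbering of the non-targeting guides, the number detected per 100 consecutive guides ranged from 23 to 37 before selection, from 1 to 8 after RSL-3 and from 5 to 10 after RSL-3/LA. The counts of these stretches ranged from 1812 to 2401 in untreated cells. After selection they spread from 10 to 5931 counts in RSL-3 survivors and from 641 to 13504 in RSL-3/LA survivors, where the highest stretch, guides 501 to 600, holds NonTargetingControlGuideForHuman_0586. The mean count of a non-targeting guide was 21.3 before selection, 14.8 after RSL-3 and 37.5 after RSL-3/LA, and the summed means of a gene-targeting guide of sub-library A and 1 of B were 24.4, 25.5 and 24.7. Of 290 non-targeting guides counted in untreated cells 9 were counted in all libraries.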
